A study of Drosophila melanogaster with 2 samples.

Results

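The 29 protein-coding genes of the Drosophila melanogaster Mediator complex were taken from 13945 protein-coding genes on 6 chromosome arms, as all symbols made of MED and a number plus kto, skd, CycC and Cdk8. The rule itself reads gene symbols only. Binding of the CG30020 product was profiled by ChIP-seq in a single group of 2 libraries, biological replicates 2 and 3. Each used whole animals of both sexes, 0- to 24-h embryos, from 1 transgenic line that carries CG30020 with enhanced green fluorescent protein (eGFP) at its C terminus, and the immunoprecipitation was directed at GFP. The labels do not name the promoter that drives the fusion, and no group without it was analysed here, so no condition was compared with another. Values come from whole embryos, and occupancy in fewer cells cannot be told apart from weaker occupancy in each cell.

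Mediator is the coactivator complex that links DNA-bound transcription factors to RNA polymerase II at promoters. Its head and middle modules contact the polymerase, MED14 is the backbone that holds the modules together, and the tail receives most contacts from activators. The kinase module is made of Cdk8, its cyclin CycC, and the large subunits kto (Med12) and skd (Med13), and it binds the rest reversibly. In flies kto and skd are known from patterning of the eye and wing. The members fell into 9 head, 9 middle, 6 tail and 4 kinase genes and the backbone gene MED14.

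A gene counted as bound when at least 1 of its annotated transcription start sites (TSSs) had a peak summit no more than 500 bp away. Unless another list is named, summits are those of the authors' list thresholded by irreproducible discovery rate (IDR), which measures how alike peaks rank in replicates. The strongest IDR summits of bound members had the same ranks as in the list from both libraries pooled. A bound call did not require a nearby summit in each replicate, and MED9 had none in replicate 2. Bases around the summits of 9 members are shown on dm6 because they cover the range of the data. They are 5 of the members with the strongest promoter peaks, MED11 and Cdk8 with weaker ones, and MED28 and MED18, which had summits in relaxed lists but none in the IDR list. Each is written 5′ to 3′ on the gene's strand and holds the longest stretch outside annotated exons within 75 bp of the summit. The stretch of MED18 does not include its pooled summit, which lies at chrX:1865794. Capitals mark TATAAA (the core promoter element bound by TBP), TATCGATA (DNA replication-related element), CGATA (the site type bound by BEAF), GGTCACAC (core of Ohler promoter motif 1) and GAGAG (GAGA), each on either strand, and neighbouring or overlapping matches run together.
MED21 (chr3L:25115947-25116052, minus strand): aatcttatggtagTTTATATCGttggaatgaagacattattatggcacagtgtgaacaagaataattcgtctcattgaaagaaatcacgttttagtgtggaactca
MED26 (chr4:788503-788653, minus strand): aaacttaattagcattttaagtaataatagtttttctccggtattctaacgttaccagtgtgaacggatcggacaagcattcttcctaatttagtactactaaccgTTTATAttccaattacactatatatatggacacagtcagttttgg
MED31 (chr3R:4641641-4641791, plus strand): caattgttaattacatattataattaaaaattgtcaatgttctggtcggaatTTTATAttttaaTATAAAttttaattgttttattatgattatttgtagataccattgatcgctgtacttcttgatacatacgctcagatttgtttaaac
MED1 (chr3L:21634447-21634596, minus strand): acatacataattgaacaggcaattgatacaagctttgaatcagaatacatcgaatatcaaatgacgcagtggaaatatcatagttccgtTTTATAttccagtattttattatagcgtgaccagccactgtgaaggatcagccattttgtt
MED27 (chr3R:5654918-5655068, plus strand): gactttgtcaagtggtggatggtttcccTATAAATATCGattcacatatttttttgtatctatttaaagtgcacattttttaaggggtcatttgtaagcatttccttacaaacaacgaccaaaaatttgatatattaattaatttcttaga
MED11 (chr3L:18745741-18745855, plus strand): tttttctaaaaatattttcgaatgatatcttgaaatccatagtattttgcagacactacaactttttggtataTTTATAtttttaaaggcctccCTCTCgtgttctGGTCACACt
Cdk8 (chr3L:9838671-9838808, minus strand): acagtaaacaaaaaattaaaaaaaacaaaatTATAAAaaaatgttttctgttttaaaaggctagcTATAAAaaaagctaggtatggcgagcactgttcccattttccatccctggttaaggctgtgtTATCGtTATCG
MED28 (chr3R:25476916-25477002, plus strand): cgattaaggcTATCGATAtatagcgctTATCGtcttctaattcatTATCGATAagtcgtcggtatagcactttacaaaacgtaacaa
MED18 (chrX:1865836-1865869, plus strand): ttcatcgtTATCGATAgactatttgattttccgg

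Most Mediator genes had a CG30020-eGFP peak at the promoter. In the IDR list 22 of 29 members were bound (75.9%), where 30.7% of all protein-coding genes were. The strongest 5048 peaks of replicate 2 alone, as many as the IDR list holds, bound 20 members (69.0%) against 29.8% of all genes. The strongest 5048 of replicate 3 bound 21 members (72.4%) against 30.8%. In all 3 of these lists 19 members were bound, 65.5% against 25.8% of all genes. The relaxed lists of 30000 peaks each reached 26 members, whether pooled, in replicate 2 or in replicate 3, and they bound 46.3%, 49.4% and 48% of all genes. MED14, which had no summit near its start in any list, was the only member missing from all 4 lists.

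The modules differed in how many of their genes were bound, with groups too small for more than a count. All 9 middle genes were bound. Of the 6 tail genes 5 were bound, all but MED24, and of the 4 kinase genes 3, all but kto. Of the 9 head genes 5 were bound, and MED18, MED20, MED22 and MED28 were not. These 4 head genes each had a summit in the pooled list and in replicate 3, whereas MED14, MED24 and kto had none in either. With the strongest peaks of replicate 2 the middle count was 8, since MED9 was lost, and the tail count was 4, since MED15 was lost. With those of replicate 3 the head count was 4, since MED6 was lost.

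**Figure D1:**
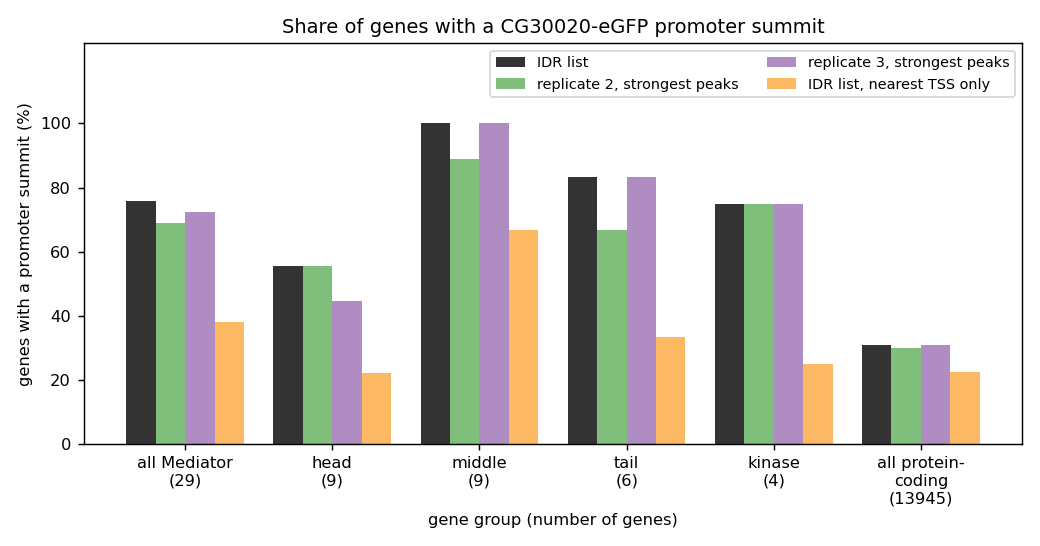
Percent of genes with a promoter summit (vertical axis) in all 29 Mediator genes, in 4 modules and in all 13945 protein-coding genes (horizontal axis, gene numbers in parentheses). The IDR bar of the middle module is at 100% and that of the head module at 55.6%, and every bar for all Mediator genes is above its counterpart for all protein-coding genes, least so when a summit counts for its nearest TSS only.

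Peak strength was read as the authors' signal value of the strongest promoter summit, divided by the median IDR peak, from the pooled libraries and from each replicate's own list. The scale of the signal is not stated, so only such multiples within a list are given. The 22 bound members had a median of 1.56 times, with values between 0.584 and 55.5, and all bound protein-coding genes had a median of 1.13. The replicates alone gave members a median of 1.43 times in replicate 2 and 1.34 times in replicate 3, against 1.01 and 1.04 for all bound genes. Above the median IDR peak stood 13 of the bound members (59.1%) and 58.7% of all bound genes, so that share was near the background. At least 2 times the median was reached by 6 of the 29 members (20.7%), MED21, MED26, MED31, MED8, MED1 and MED27, and by 6.86% of all genes. That gap includes the higher share of members bound, 75.9% against 30.7%. Among bound genes alone it was 6 of 22 members and 957 of 4284 protein-coding genes, a much smaller gap. Of the 6 members 4 belong to the middle module, 1 to the head and 1 to the tail. Sources differ on the module of MED14, MED19, MED25, MED26 and MED27, so the places of MED26 and MED27 in this split depend on the scheme.

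**Figure D2:**
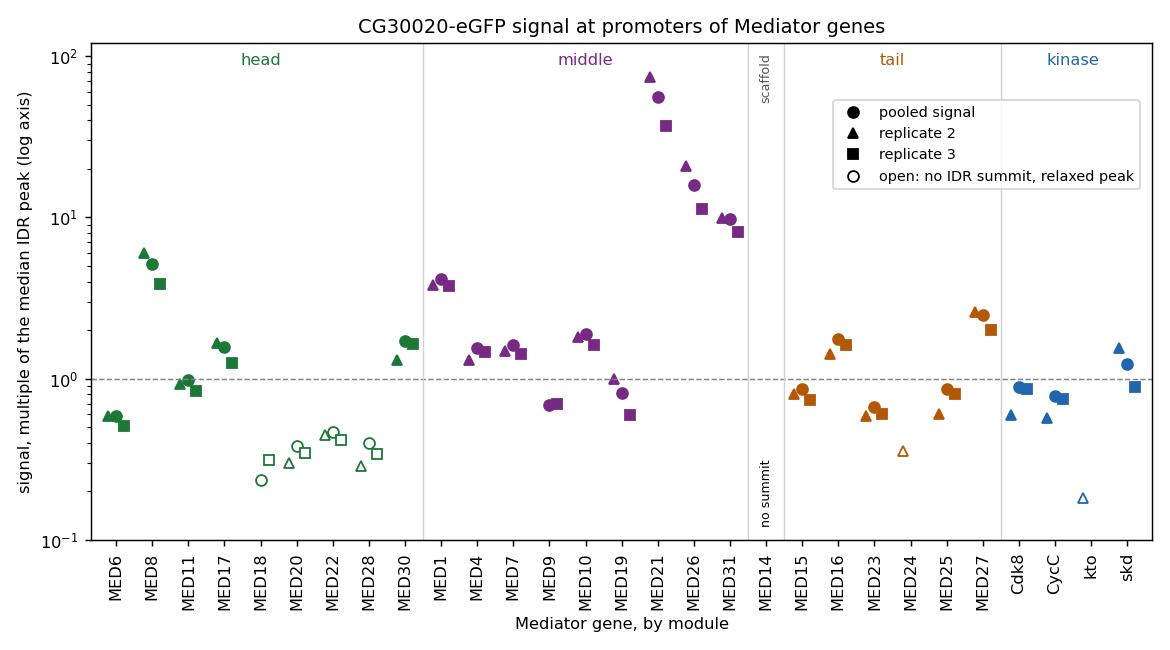
Signal at the strongest promoter summit of each Mediator gene, divided by that of the median IDR peak (vertical log axis), by module along the horizontal axis, in the pooled signal (circles), replicate 2 (triangles) and replicate 3 (squares). Filled symbols are IDR summits, open ones the strongest relaxed summit of genes without one, and the dashed line is the median IDR peak. MED21 stands highest, at 36.7 to 74.1 times, and the open symbols lie at 0.182 to 0.469 times.

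The middle module held the strongest peaks. MED21 (FBgn0040020, chr3L:25114924-25115946, minus strand) encodes a small subunit that pairs with MED7 at the hinge of the module. Its peak had a summit 31 bp upstream of the TSS and stood at 74.1 times the median in replicate 2, 36.7 times in replicate 3 and 55.5 times in the pooled signal. It ranked 5 of 5048 IDR peaks, and replicate 3 over replicate 2 gave a log2 ratio of -1.02. The authors' interval was 9931 bp wide, where bound protein-coding genes had a median width of 447 bp.

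MED26 (FBgn0039923, chr4:778516-788978, minus strand), whose human counterpart binds elongation factors, followed. It stood at 20.7 times in replicate 2, 11.2 times in replicate 3 and 15.9 times in the pooled signal. This summit lay 400 bp downstream of the outer start site, and a further IDR summit, at 13.2 times, lay 14 bp upstream of the inner one. In the IDR list MED26 was thus the only bound member whose strongest summit lay more than 100 bp inside the gene. The replicates differed here, as in replicate 3 the strongest promoter summit lay 25 bp downstream of the inner start site, at 11.7 times.

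MED31 (FBgn0037262, chr3R:4641963-4643292, plus strand), a small subunit conserved from yeast, had 9.96 times in replicate 2, 8.11 in replicate 3 and 9.77 in the pooled signal, at a summit 247 bp upstream. MED1 (FBgn0037109, chr3L:21628325-21634446, minus strand), which in mammals contacts nuclear receptors, had 3.81 times in replicate 2, 3.73 in replicate 3 and 4.15 in the pooled signal, at a summit 75 bp upstream. The other 5 middle genes stood at 0.687 to 1.88 times in the pooled signal. MED10 had 1.82 times in replicate 2 and 1.61 in replicate 3, and MED7 had 1.49 in replicate 2 and 1.42 in replicate 3. MED4, which pairs with MED9 in the module, had 1.31 times in replicate 2 and 1.46 in replicate 3. These 3 genes were thus above the median peak in both libraries. MED19, which in flies binds Hox proteins, equalled the median peak in replicate 2 (1 times) and was below it in replicate 3 (0.596 times). MED9 was the weakest at 0.687 times and rested on replicate 3, where it had 0.699 times. In replicate 2 the nearest summit to MED9 was 5416 bp away.

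Among the bound head genes MED8 stood highest and MED6 lowest. MED8 (FBgn0034503, chr2R:20325844-20326806, minus strand), the subunit that anchors MED18 and MED20 to the head in yeast, had 5.98 times the median in replicate 2, 3.84 times in replicate 3 and 5.14 times in the pooled signal. Its summit lay 236 bp upstream, and a second IDR summit at 3.71 times lay 441 bp upstream. MED17, the large central head subunit, stood at 1.57 times in the pooled signal, and MED30, a subunit of animals, at 1.71. MED17 had 1.66 times in replicate 2 and 1.25 in replicate 3, and MED30 had 1.31 in replicate 2 and 1.64 in replicate 3, so both were above the median peak in each. MED11, which pairs with MED22, stood at 0.979 times in the pooled signal, and at 0.923 times in replicate 2 and 0.839 times in replicate 3. MED6 had 0.588 times in replicate 2, 0.507 in replicate 3 and 0.584 in the pooled signal. It was the weakest bound member in the pooled signal and in replicate 3, while CycC was lower in replicate 2 and MED9 had no summit there. MED6 ranked 4596 of 5048, has 5 annotated start sites, and was not bound when only its outermost start counted.

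The remaining 4 head genes had pooled-list peaks below those of every bound member. Since bound members kept their pooled ranks in the IDR list, this order follows from how bound was defined. MED22 had 0.449 times the median in replicate 2, 0.419 in replicate 3 and 0.469 in the pooled list. MED28, a subunit found in animals but not in yeast, had 0.289 times in replicate 2, 0.341 in replicate 3 and 0.397 in the pooled list. MED20, which pairs with MED18, had 0.298 times in replicate 2, 0.344 in replicate 3 and 0.385 in the pooled list. MED18 had no summit within 500 bp in replicate 2, 0.313 times in replicate 3 and 0.234 in the pooled list, where it ranked 9895 of 30000. Their nearest IDR summits were 1158 bp (MED20), 3704 bp (MED28), 3996 bp (MED18) and 7187 bp (MED22) from the TSS. No member therefore fell just outside the 500 bp limit. On the inner side the closest were MED15, with a strongest summit 449 bp upstream, MED26 at 400 bp, and the second summits of MED8 and skd at 441 and 488 bp upstream.

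Tail genes carried mostly modest peaks. MED27 (FBgn0037359, chr3R:5655139-5656336, plus strand), which bridges tail and head, led with 2.59 times in replicate 2, 2.01 in replicate 3 and 2.49 in the pooled signal, at a summit 146 bp upstream. MED16 followed at 1.75 times in the pooled signal, with 1.43 in replicate 2 and 1.61 in replicate 3. MED15, in yeast a main target of activators, stood at 0.864 times and MED25 at 0.858 times in the pooled signal. MED15 had 0.801 times in replicate 2 and 0.74 in replicate 3, but its replicate 2 summit lay farther than 500 bp from the TSS, and the strongest one inside that limit stood at 0.347 times. MED25, which in humans is the target of the viral activator VP16, had 0.603 times in replicate 2 and 0.804 in replicate 3. MED23, in mammals the target of the viral activator E1A, was the weakest bound tail gene at 0.591 times in replicate 2, 0.605 in replicate 3 and 0.663 in the pooled signal. MED24 had a summit within 500 bp in replicate 2 only, at 0.354 times, and its nearest IDR summit was 4416 bp away. Its nearest summit in the pooled list and in replicate 3 was 4217 bp away.

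No kinase module gene reached 2 times the median. The cyclin partner kinase Cdk8 had 0.592 times in replicate 2, 0.861 in replicate 3 and 0.891 in the pooled signal, at a summit 63 bp upstream. CycC had 0.572 times in replicate 2, 0.752 in replicate 3 and 0.782 in the pooled signal, at a summit 41 bp upstream. The gene skd had 1.54 times in replicate 2, 0.893 in replicate 3 and 1.24 in the pooled signal, 285 bp upstream, so the replicates lay on either side of the median peak. For kto a summit was listed in replicate 2 only, at 0.182 times and rank 13091 of 30000, and the nearest IDR summit lay 2161 bp downstream of its inner start site, past the end of the gene. The backbone gene MED14 had its nearest IDR summit 3769 bp upstream and its nearest pooled summit 1607 bp upstream. In the single replicates it lay 1714 bp (replicate 2) and 1599 bp (replicate 3) upstream.

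Most bound members lay on the same side of the median peak in both replicates. Above the median peak in both replicates stood 12 bound members, and 7 stood below it in both. The same split was not counted over all bound protein-coding genes, so these counts have no background beside them. The log2 ratio of the multiple in replicate 3 to that in replicate 2 was between -1.02 and 0.54 over 21 members, with an SD of 0.45, where all bound genes had an SD of 0.52. The multiple was higher in replicate 2 for 14 members and in replicate 3 for 7, against 2095 and 2097 of all bound genes. The members are not replicates of each other, and this split was not tested.

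Summits sat mostly upstream of the start. In 20 of 22 bound members (90.9%) the strongest summit was upstream, as in 90.1% of all bound genes. The median offset was -97 bp for members and -116 bp for all bound genes, and the matched summits of the single replicates gave members -114 and -78.5 bp in replicates 2 and 3. Within 100 bp of the TSS lay 10 of 22 member summits (45.5%) and 41.8% of those of all bound genes. A second IDR summit lay within 500 bp in 6 members, and no member carried an IDR summit deeper inside its gene than 500 bp from a TSS. IDR summits per bound gene had a median of 1 in members and in all bound genes, with highest counts of 2 and 5. Shares of all genes with a second or a deeper summit were not counted. With a limit of 200 bp in place of 500 bp, 17 members (58.6%) and 24.9% of all genes were bound, and MED8, MED31, MED15, MED25 and skd were those lost.

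**Figure D3:**
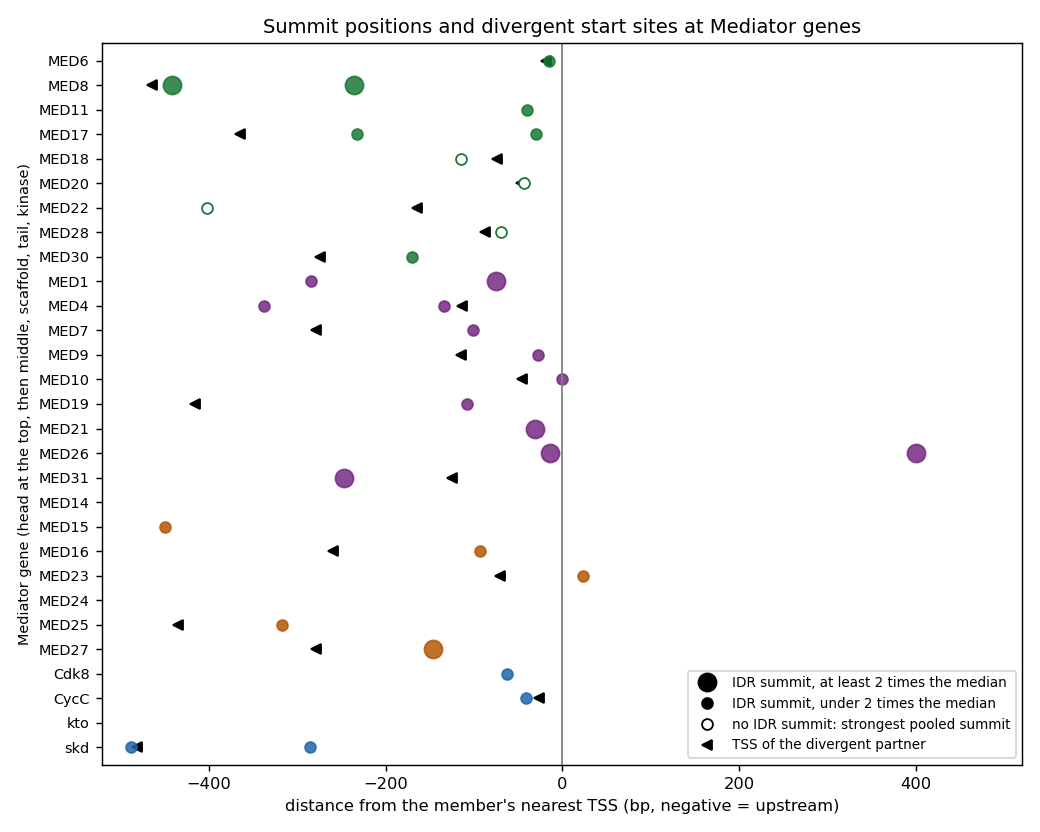
Distance of summits from each member's nearest TSS in bp (horizontal axis, negative is upstream), with 1 row for each Mediator gene. Large and small filled circles are IDR summits at or above, and under, 2 times the median peak, open circles the strongest pooled summits of genes with no IDR summit, and triangles the TSS of a divergent partner. Apart from MED23 and 1 summit of MED26, the filled circles lie upstream, and many lie between the gene and its partner.

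Mediator genes often share their promoter region with a gene on the opposite strand. Within 500 bp upstream 20 of 29 members (69.0%) had such a divergent start, against 29.6% of all protein-coding genes. Of these 20 members 16 were bound (80.0%), against 61.3% of all genes with a divergent neighbour. Of the other 9 members 6 were bound (66.7%), against 17.8% of all genes without one. The 15 bound members with a protein-coding partner all had the same strongest summit as the partner, so binding at the Mediator gene and binding at its neighbour cannot be told apart there. The 500 bp windows of such close starts overlap, which favours a shared summit, and this sharing was not counted over all bound divergent pairs.

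The peak was often nearer to the neighbour. In 12 of the 22 bound members the strongest summit lay nearer to a TSS of another gene (54.5%), against 32.5% of all bound protein-coding genes. These partners include CG9775, 122 bp from the summit that lay 247 bp from MED31, and CG8929, 228 bp from the summit at MED8. They also include elm at MED27 (132 bp), Rev1, a translesion DNA polymerase gene, at MED30 (104 bp), and CG12321 at MED17 (133 bp). UQCR-C1, a subunit gene of respiratory complex III, lay 15 bp from the CycC summit, and Naa80, an acetyltransferase gene, 4 bp from that of MED6. Pdss2 at skd (196 bp) and Hs6st at MED25 (118 bp) were further cases. At MED15 the nearer start was that of CG4297 (364 bp), at MED9 that of CG42518 (0 bp), and at MED4 that of the antisense RNA gene asRNA:CR43470 (21 bp). In the other 10 the nearest start was the member's own, as at MED21, MED26, MED1 and Cdk8, which have no divergent neighbour, and at MED7, which faces the condensin gene Cap-H2.

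Counting each summit for its nearest TSS only left 11 members bound (37.9%), against 22.3% of all genes. Of the 20 members with a divergent neighbour 6 were then bound (30%), against 35.7% of all such genes, so their share was near the background. Of the 9 without one 5 were bound (55.6%), against 16.6% of all such genes. By module the counts were 6 of 9 middle, 2 of 9 head, 2 of 6 tail and 1 of 4 kinase genes.

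The spacing of the pair also went with binding. Of 11 members with a divergent start at 200 bp or less 7 were bound, where 53.2% of all such genes were. Of 9 members with a start farther than 200 and up to 500 bp away all were bound, where 66.9% of all such genes were. The 4 unbound head genes all belong to close pairs, MED20 with the TBP-related factor gene Trf at 47 bp, MED18 with Gcna at 74 bp, MED28 with CG4553 at 88 bp and MED22 with CG43867 at 164 bp. Bound close pairs included CycC (26 bp), MED10 with PDCD-5 (46 bp) and MED23 with Gmer (71 bp). These counts on either side of 200 bp were added after the values had been seen.

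The strongest member lay in repeat-rich surroundings. Within 50 kb on each side of MED21 45.2% of the bases were soft-masked repeats, against a median of 14.1% over all 29 members and 14.5% over all protein-coding genes. The same window held 6 IDR summits, against medians of 7 over members and 5 over all genes. IDR peaks covered 14.3% of it, the highest share among the 29 members, against medians of 2.66% over members and 1.71% over all genes. Around MED26 20.2% were soft-masked and 7 IDR summits were listed. The part played by repeats in the multiple of MED21 was not tested, and without MED21 the median of bound members was 1.55 times. Members occurred on 6 arms. Bound were 9 of 12 on 3L (30.2% of all genes there), 7 of 8 on 3R (30% of all), 4 of 4 on 2R (29.9% of all) and 1 of 2 on 2L (30.6% of all). On X neither MED18 nor MED22 was bound (31.9% of all). On chromosome 4, where 77.5% of all genes were bound, the single member MED26 was bound, as most genes there were.

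Promoters of members, taken from 250 bp before to 50 bp after the outermost TSS, were searched for 7 letter motifs of fly core promoters. The motif 1 core GGTCACAC, on either strand, was in 9 of 29 (31.0%) against 7.70% of all protein-coding promoters. The 9 are MED8, MED11, MED20, MED22, MED10, MED19, MED15, MED23 and MED24. Among bound genes it was in 27.3% of member promoters and 15.0% of all. The replication-related element TATCGATA was in 7 of 29 (24.1%) against 9.36% of all. The 7 are MED8, MED17, MED18, MED28, MED7, MED9 and MED25. Among bound genes it was in 22.7% of member promoters and 18.9% of all, a smaller gap. The initiator core TCAGT was in 8 of 29 on either strand (27.6%) against 51.5% of all. Among bound genes the either-strand shares were 22.7% of member promoters and 43.4% of all. On the gene's strand alone the core was in 5 (17.2%) against 36.1%. Among bound genes that search gave 22.7% of member promoters and 26.4% of all, a smaller gap. CAGCTG, the E-box core of Ohler motif 5, was in 5 (17.2%) against 17.7%, GAGAG in 6 (20.7%) against 29.7%, TATAAA in 15 (51.7%) against 45.8% and CGATA in 14 (48.3%) against 47.4%. Among bound genes CGATA was in 45.5% of member promoters and 62.0% of all. CGATA lies within TATCGATA, so those 2 counts overlap.

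The motifs were also searched within 50 bp of summits. Here the strongest summit of each bound member was set against all IDR summits at protein-coding promoters, weaker second ones included. TATCGATA was found in 0 of 22 bound members, against 7.23% of these IDR summits. At so low a share 22 summits would hold few matches, so 0 is near the background. CGATA was found in 3, MED19, MED25 and MED27 (13.6%), against 31.0%. TATAAA was found in 8 (36.4%) against 22.9%, among them MED26, MED31, MED1, MED27, MED11 and Cdk8 as printed above, and GGTCACAC in 2, MED11 and MED23 (9.09%), against 3.95%. The replication-related elements of MED28 and MED18 shown above lie at promoters without an IDR summit. The share of A and T at member summits had a median of 65.3%, against 66.3% at all such summits. A match is a run of letters and not a measured site.

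In the IDR list other complexes of polymerase II transcription were bound at shares near that of Mediator. RNA polymerase II subunit genes were bound in 9 of 12 cases (75%), SAGA coactivator genes in 12 of 16 (75%), Integrator genes in 10 of 14 (71.4%) and general transcription factor genes in 20 of 32 (62.5%). With the strongest peaks of replicates 2 and 3, SAGA had 62.5% and 75%, Integrator 57.1% and 78.6%, and Mediator 69% and 72.4%. Polymerase II had 75% and the general factors 65.6% in both replicates. The strongest members of these other lists were Polr2H at 2.87 times, Nipped-A at 45.9, IntS3 at 30.5 and TfIIB at 16.5 times the pooled signal of the median peak. In replicates 2 and 3 Nipped-A had 59.6 and 31.2, IntS3 39.9 and 20.5, TfIIB 15.3 and 14.4, and Polr2H 3.23 and 2.21 times. The median of bound genes was 1.56 times in Mediator, 1.41 in SAGA, 1.22 in polymerase II and in Integrator, and 1.15 in the general factors. The share of genes with a divergent neighbour was 69.0% in Mediator and 57.1% to 62.5% in the other lists. The intersex gene ix, which the annotation lists with the synonym MED29, lies outside the naming rule. It was bound at 0.772 times the median.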

How the data were processed

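In all, 4 peak lists on dm6 were used, 1 for each of the 2 libraries, 1 for both pooled and 1 thresholded by IDR. Per the notes deposited with the files, each library and the pool were compared with the same single control alignment when peaks were called, and IDR thresholding then used these 3 lists. The control itself was not analysed here. Which aligner and peak caller were run was not given in the sources used here. The labels name an antibody against GFP in the description and CG30020 in the antibody field, and give fragments of 200 to 800 bp. The deposited signal value has no stated scale, and the deposited summit offset counts bases along the peak. The deposited −log10 q value was the same, 4.23, in all 5048 IDR peaks, so it ranked none of them. Read depth is unknown from these lists, so no counting interval can be given.

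Gene models were those of Ensembl release 115 and sequence was read from RefSeq's Release 6 assembly (dm6), within whose arm lengths all peaks lie. Genes on Y and entries for transposable elements were not counted. Multiples divide the deposited signal by the median IDR peak, and in a replicate by the median of matches (strongest summit within 250 bp of each IDR summit). Distances were computed with Python 3.11.15, pandas 2.3.3 and numpy 2.4.6, and the assignment of summits to TSSs was tested on simulated data. With 1 group, all results are descriptions and no test was made. Members, modules and gene lists were chosen with earlier results of these data known. Named genes are all members, the neighbours with a TSS nearer to a summit or facing a member, and the strongest gene of each other list. Symbols no longer in use were matched by synonym, and IntS15 was not matched. Alternatives were other windows, interval overlap, IDR peaks at or above the median only, 1 TSS per gene, nearest TSS only, single replicates and another placement of 5 subunits in modules.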

Additional observations from a re-analysis of the deposited data

How the results depend on the processing

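The count of 22 bound members was 13 with IDR peaks at or above the median only (18.0% of all genes) and 11 with nearest TSS only. Windows of 200 and 1000 bp, interval overlap, 1 TSS per gene and single replicates gave 17 to 22. The head count of 5 was 3 with these stronger peaks and 2 with nearest TSS only. The tail count of 5 was 3 with 200 bp, 2 with these stronger peaks, 2 with nearest TSS only and 3 of 5 under the other module placement. The kinase count of 3 was 1 with these stronger peaks and 1 with nearest TSS only. The middle count of 9 was 6 to 9 under all settings tried, and 7 of 7 under the other placement. The median multiple of 1.56 was 1.34 without replicate 2, 1.43 without replicate 3 and 1.40 with the summit nearest the TSS. The count of 20 members with a divergent neighbour was 11 within 200 bp. Fewer peaks, narrower windows or fewer genes per summit shape these settings by construction. Alternatives for the pooled and single-replicate lists were chosen after seeing the data, and all stayed within 1.5 times of the value reported. The median bound share of the other transcription lists was 73.2%. It was 64% without replicate 3 and 75% without replicate 2, alternatives that were not planned either. No paired analysis was possible because there is 1 group. Read depth is unknown, so whether deeper libraries would list summits at MED14, MED24 or kto was not tested.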
